A study of Mus musculus with 4 samples.

Results

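The metallothioneins Mt1 and Mt2 are small, cysteine-rich proteins that bind zinc and copper and can take up cadmium. Their genes are switched on by the zinc-sensing transcription factor MTF1, which binds metal response elements in their promoters, and also by glucocorticoids and oxidative stress. Macrophages take up dead cells and red cells and so handle much metal, and metallothioneins are among the genes with which they buffer it. Mt1 and Mt2 were taken by their gene symbols: 2 of the 31053 genes in the matrices, and 2 of 4 genes with a metallothionein symbol. They were put forward with results of these data in view, and cells were grouped by the UMIs of marker genes, so levels over cell classes are a description with no test and the fitted differences are not independent evidence.

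Balb/c mice were given 4T1 mammary carcinoma cells into a vein, from which these mouse tumour cells colonise the lung. The cells were either unmodified (labelled WT) or lacked PD-L1 by knockout (labelled PD-L1 KO). In both groups the lungs were taken on day 14, digested with collagenase and enriched for CD45-bearing leukocytes on magnetic beads; the mice themselves carried no stated allele, and neither mouse age nor the number of PD-L1 KO clones is given in the sources used here. There were 2 droplet single-cell libraries per group, numbered 1 and 2. Nothing in the labels ties each library to its own mouse. The p-values then measure only the spread between libraries, which may be technical. The deposited files were named for the opposite condition, and every direction here rests on the sample labels. The targeted gene, Cd274, gave 519 and 417 UMIs for WT and 839 and 637 UMIs for PD-L1 KO. The leukocytes belong to the host, and the 21 epithelial or carcinoma-like cells held 1 UMI of it, so it does not check the labels.

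A UMI marks 1 captured RNA molecule. The libraries held 2370 to 2736 barcodes and 17618220 to 19635983 UMIs, with at most 3 barcodes shared by a pair of libraries. After filters 9054 barcodes were kept, and each was put in a class only if it met the marker gate of exactly 1 class; 2167 met more than 1 gate and 660 met none. The leading genes of each class by fold included 3 to 6 of its own markers in the 11 classes other than fibroblast-like cells. In fibroblast-like cells they included 2. Cells were gated on these same markers, so this is no independent check of the classes. The CD45 preparation still held 482 endothelial-like and 79 fibroblast-like cells. Levels are counts per 1000000 UMIs of the class in that library (CPM), and 4 values in a row are those of WT 1, then WT 2, then PD-L1 KO 1 and last PD-L1 KO 2.

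Mt2 lies at chr8:94172664-94173568 and Mt1 at chr8:94179082-94180327, both on the plus strand of GRCm38, 5513 bases apart, and each has 3 exons. The coding sequences are shown because they carry the feature that defines the family: of 61 codons in each, 20 encode cysteine, the metal-binding residue, and these are in capitals. Without its stop codon the Mt1 coding sequence runs over the 3 exons between chr8:94179311-94180190 and that of Mt2 between chr8:94172848-94173424. The sequences printed include the stop codon.
Mt1 coding: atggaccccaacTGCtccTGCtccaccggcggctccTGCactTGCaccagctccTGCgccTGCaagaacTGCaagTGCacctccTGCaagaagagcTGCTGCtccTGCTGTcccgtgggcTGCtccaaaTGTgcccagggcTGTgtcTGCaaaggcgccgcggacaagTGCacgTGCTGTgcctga
Mt2 coding: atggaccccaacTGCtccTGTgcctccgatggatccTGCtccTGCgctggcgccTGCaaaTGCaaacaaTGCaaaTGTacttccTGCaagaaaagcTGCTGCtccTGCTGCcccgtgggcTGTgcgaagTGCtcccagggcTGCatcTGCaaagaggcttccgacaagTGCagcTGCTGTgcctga
The pair was identical at 148 of 186 bases (79.6%), and all 20 cysteine positions coincided. The longest run shared by the transcripts was 20 bases, against a 91-base second read, so reads of the 2 genes can be told apart by sequence.

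The 250 bases before each RefSeq start (GRCm38.p6) are shown because they hold metal response element cores, searched as TGCACNC or TGCGCNC on both strands and printed in capitals. The Mt2 window is chr8:94172368-94172617 and the Mt1 window chr8:94178839-94179088, both read on the plus strand.
Mt2 upstream: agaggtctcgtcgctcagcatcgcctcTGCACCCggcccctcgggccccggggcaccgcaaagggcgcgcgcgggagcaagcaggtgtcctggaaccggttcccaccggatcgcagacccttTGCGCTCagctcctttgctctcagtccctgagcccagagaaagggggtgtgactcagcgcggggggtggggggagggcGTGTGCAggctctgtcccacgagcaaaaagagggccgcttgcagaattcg
Mt1 upstream: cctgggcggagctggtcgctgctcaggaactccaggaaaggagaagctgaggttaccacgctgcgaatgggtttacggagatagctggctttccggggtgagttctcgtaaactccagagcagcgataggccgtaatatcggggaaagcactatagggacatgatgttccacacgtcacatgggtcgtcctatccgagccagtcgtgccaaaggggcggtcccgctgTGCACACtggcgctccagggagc
The Mt2 window held 3 cores, starting 223, 128 and 50 bases before the start, and the Mt1 window held 1, at 23 bases. One core or more was found in 21.4% of 32851 RefSeq windows of that length, and 3 or more in 1.26%. An antioxidant response element (TGACNNNGC, in 10.2% of windows) occurred 1 time in Mt2 and not in Mt1. The USF E-box CACGTG, the glucocorticoid receptor half-site AGAACA and TATAAA were in neither window. TATAAA instead lay after the annotated start, at base 129 of the 229 before the Mt1 start codon and at base 90 of the 184 before that of Mt2. In that stretch Mt1 had 2 further cores of each kind and 1 antioxidant response element, and Mt2 had 2 cores with A, 1 with G and no antioxidant response element. These are matches of letters in a window, not measured binding sites.

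Mt1 was most abundant in the macrophage classes. In alveolar macrophage-like cells, the resident phagocytes of the airspace, the Mt1 level was 1085, 1319, 1267 and 1301 CPM, from 3445, 2527, 2995 and 2723 UMIs. In C1q macrophage-like cells, a tissue macrophage class marked by complement C1q genes, it was 766, 781, 978 and 720 CPM. The 2 ranges did not overlap, nor did that of the C1q class overlap the next, conventional dendritic-like cells at 452, 393, 538 and 302 CPM. Alveolar macrophage-like cells were 901 of 9054 kept cells and held 38.9% of Mt1 and 47.8% of Mt2 UMIs. Much of the rest lay outside every class. The 2167 cells that met more than 1 gate held 39.3% of Mt1 and 34.4% of Mt2 UMIs. They were deep, with medians of 10502 to 12374 UMIs in the libraries. Their mean Mt1 level was 359 CPM, below the 431 CPM of all kept cells. The 660 that met none held 4.06% and 4.75%.

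Classical monocyte-like cells, the Ly6c2- and Ccr2-bearing monocytes that enter tissue from blood, came next with a mean of 292 CPM ± 116 (SD, n = 4). Their range overlapped that of the dendritic class above and that of CD8 T-like cells below. Below them lay CD8 T-like cells at 96.7 ± 82.1 and neutrophil-like cells at 95.4 ± 18.8 CPM (SD, n = 4 each). Nonclassical monocyte-like cells, which patrol the vessel wall, stood at 48.5 ± 44.0 CPM, NK-like cells at 38.0 ± 48.5, endothelial-like at 31.6 ± 15.6, CD4 T-like at 18.9 ± 11.5 and B-like cells at 16.6 ± 11.6 CPM. From the dendritic class down, each class overlapped its neighbour. Fibroblast-like cells (234, 934, 285 and 691 CPM) and epithelial or carcinoma-like cells (2518, 617, 70.0 and 234 CPM) were left out of that order, having as few as 5 and 3 cells in a library. Of the 329 Mt1 UMIs of epithelial or carcinoma-like cells in WT 1, 321 were in 1 cell. Plasmacytoid dendritic-like and ILC2 and gamma-delta T-like cells (means of 10.7 and 5.02 CPM) were left out as well.

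**Figure D1:**
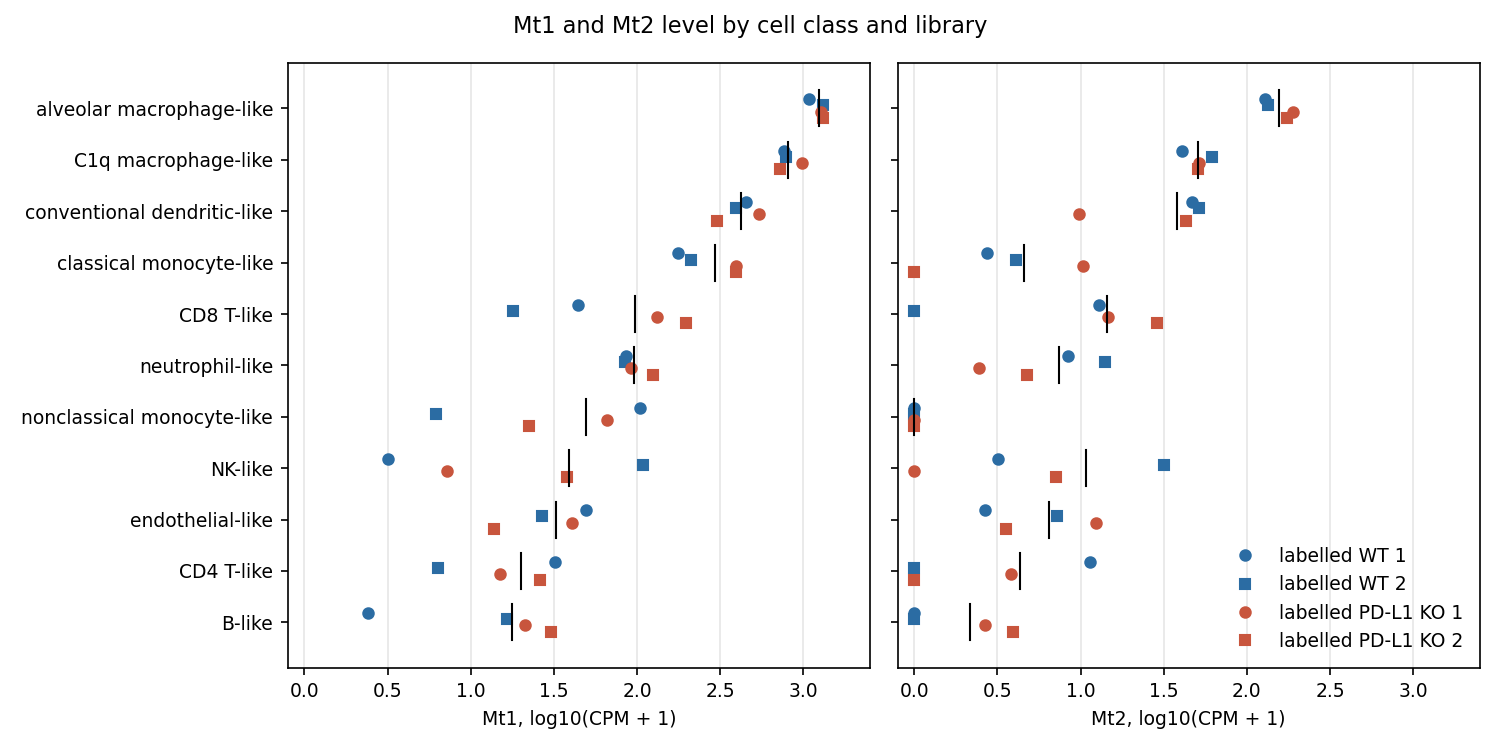
Mt1 (left) and Mt2 (right) level as log10(CPM + 1) on the horizontal axis, by cell class, with 1 point per library, blue for libraries labelled WT and red for PD-L1 KO, and a black bar at log10 of the mean CPM + 1. The Mt1 points of alveolar macrophage-like cells, 1085 to 1319 CPM, lie to the right of all other classes, and Mt2 is at 0 in nonclassical monocyte-like cells in all 4 libraries.

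The monocyte subsets were compared within each library. Mt1 was 175, 210, 392 and 391 CPM in classical monocyte-like cells (101, 68, 209 and 194 UMIs in 77, 47, 67 and 71 cells). In nonclassical monocyte-like cells it was 103, 5.18, 64.8 and 21.3 CPM (29, 2, 20 and 4 UMIs in 63, 82, 61 and 39 cells). The classical value was higher in 4 of 4 libraries. That order depended on how cells were assigned. With Leiden clusters in place of gates Mt1 was 104, 164, 340 and 434 CPM in classical and 150, 67.1, 239 and 421 CPM in nonclassical monocyte-like cells, so the order was the other way in WT 1.

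The share of classical monocyte-like cells with an Mt1 UMI was 42.9, 42.6, 58.2 and 59.2%, at median depths of 6526 to 7857 UMIs. In B-like cells, which had the lowest mean level of the classes with at least 20 cells in every library, it was 0.529, 2.91, 3.14 and 5.49% at median depths of 2759 to 2816.5 UMIs. After each cell was thinned to 1000 UMIs, leaving out none of the classical monocyte-like and 1 of the B-like cells, the shares were 13.3, 15.4, 23.6 and 25.1% against 0.238, 0.801, 1.08 and 1.80%. In both forms the 2 libraries labelled PD-L1 KO were above the 2 labelled WT in classical monocyte-like cells. By level that order held for 19.4% of the genes tested in this class, and for shares of cells it was not counted over all genes. Cells with 5 or more Mt1 UMIs numbered 9, 6, 17 and 13.

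**Figure D2:**
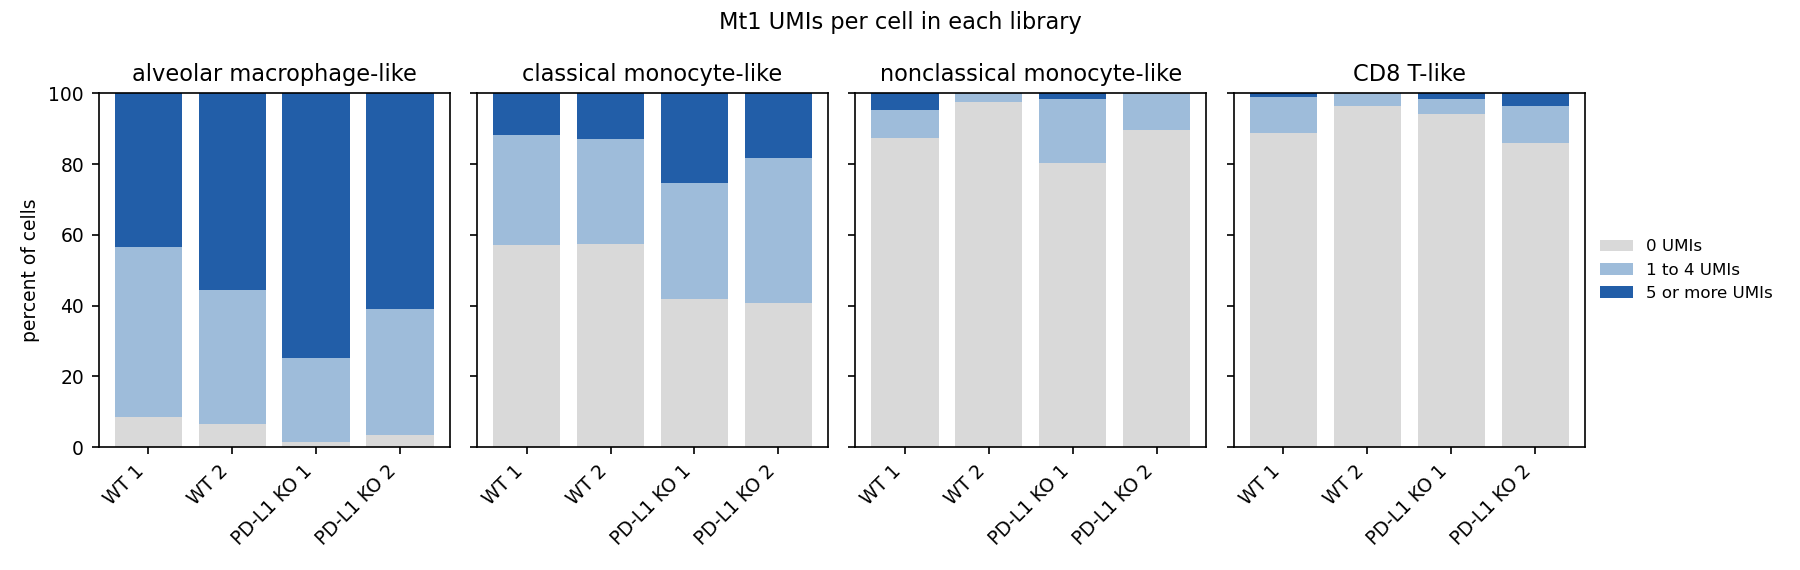
Percent of cells (vertical axis) with 0, 1 to 4, or 5 or more Mt1 UMIs in each library, for 4 cell classes. In classical monocyte-like cells 28 of 67 and 29 of 71 cells had 0 UMIs in the libraries labelled PD-L1 KO, against 44 of 77 and 27 of 47 in those labelled WT.

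Mt2 was the rarer transcript, with 3075 UMIs against 30036 of Mt1 over all kept cells. Its level in alveolar macrophage-like cells was 128, 134, 188 and 174 CPM, above C1q macrophage-like cells at 39.6, 60.3, 50.7 and 49.6 CPM with no overlap. Classical monocyte-like cells held 1, 1, 5 and 0 Mt2 UMIs. Nonclassical monocyte-like cells held 0 in every library; 0 of 82 cells in WT 2, the most of any library, allows a share of cells with an Mt2 UMI of up to 3.66%, and of 39 cells in PD-L1 KO 2 a share of up to 7.69%. Such limits cover counting error alone and do not limit the share of cells that express the gene. With the stricter gate the class held 4 Mt2 UMIs in PD-L1 KO 1, and with cells of 2 gates kept it held 4, 3, 29 and 9.

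Per 100 Mt1 UMIs there were 11.8, 10.1, 14.9 and 13.4 Mt2 UMIs in alveolar macrophage-like cells and 5.16, 7.72, 5.18 and 6.89 in C1q macrophage-like cells. Classical monocyte-like cells gave 0.990, 1.47, 2.39 and 0. The kit counts each transcript at its 3' end, so UMIs do not scale with transcript length, but capture may differ between genes and was not tested. Of 274 alveolar macrophage-like cells with an Mt2 UMI 272 also had one of Mt1, in a class where 94.6% of cells had Mt1. Gm45774, an antisense gene that overlaps Mt2 by 749 bases, had 2 to 7 UMIs per library; whether the counting used strand is not stated. Of the other family members Mt3 had 3 or 4 UMIs per library and Mt4 had 0.

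**Figure D3:**
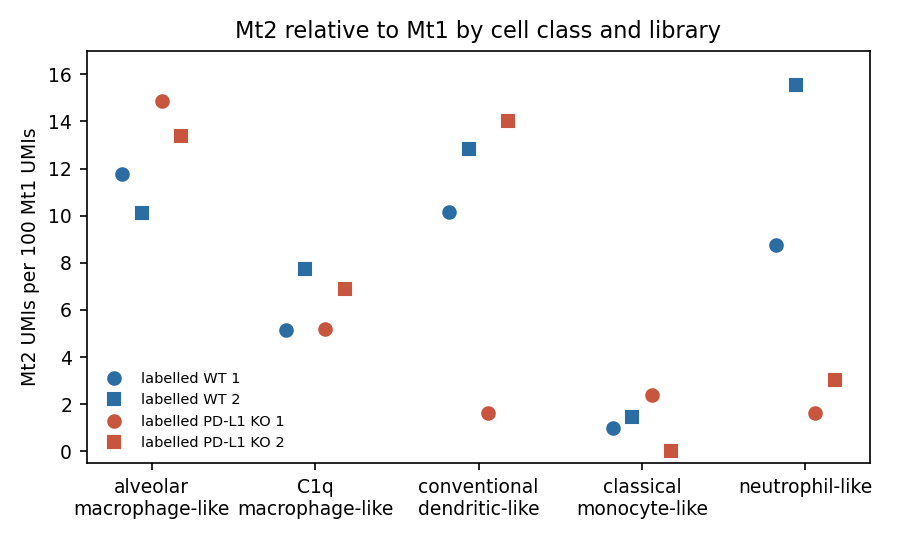
Mt2 UMIs per 100 Mt1 UMIs (vertical axis) in 5 cell classes, with 1 point per library and the same colours. Alveolar macrophage-like cells lie between 10.1 and 14.9 and classical monocyte-like cells between 0 and 2.39, and the dendritic value of PD-L1 KO 1, 1.63, rests on 3 Mt2 UMIs.

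To compare the tumour lines, UMIs were summed per class and library and tested with edgeR's quasi-likelihood test, with Benjamini-Hochberg adjustment over all genes of the fit and a threshold of 0.05. A summed level cannot tell fewer cells with the transcript from less of it per cell. Over all kept cells Mt1 was 452, 322, 495 and 454 CPM, a log2 difference (PD-L1 KO minus WT) of 0.35 (SE 0.22, edgeR adjusted p = 0.751), and Mt2 was 53.1, 28.6, 51.6 and 43.1 CPM, a difference of 0.26 (SE 0.34, adjusted p = 0.824). That sum follows cell makeup as well as level. Of 13990 genes 0% were called there (541 at an unadjusted p under 0.05, and 19 genes by DESeq2), and in 14.9% the PD-L1 KO libraries were both above the WT pair, as for Mt1.

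Mt1 was tested in 11 classes, of which T-like cells contain the CD8 T-like ones, and Mt2 in 4; the other sums were too low. Mt1 was higher in 8 classes and lower in 3, and 1 difference passed. Genes called made up 0.13% of the alveolar macrophage-like fit, 0% of the C1q macrophage-like fit, 0.0362% of the classical and 0% of the nonclassical monocyte-like fit, 0% in conventional dendritic-like, 0.12% in neutrophil-like, 0% in T-like, 0.116% in CD8 T-like, 0% in CD4 T-like, 0.104% in NK-like, 0.0165% in B-like and 0.0416% in endothelial-like cells. In the 5 class fits with no call by edgeR, 181 to 705 genes had an unadjusted p under 0.05, and DESeq2 called 0 to 3 genes.

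In classical monocyte-like cells the 2 libraries labelled PD-L1 KO, at 392 and 391 CPM, lay above the 2 labelled WT, at 175 and 210. The log2 difference was 1.02 (SE 0.17, edgeR adjusted p = 0.249) and did not pass. By unadjusted p the gene ranked 3 of 5527. Both PD-L1 KO libraries were above both WT libraries for 19.4% of genes in that fit, so this order alone is common. The call depended on the settings: with the replicate number as a block the adjusted p was 0.0233, with the numbers crossed it was 0.203, and with the stricter gate it was 0.0276. DESeq2 gave 0.975 with a difference of 1.03.

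The summed levels of several marker lists were apart between the groups in this class. The summed level of the 9 C1q macrophage markers was 2417 to 2848 CPM in libraries labelled WT and 3093 to 4306 in those labelled PD-L1 KO, with Mmp12 at 0 in all libraries. That of the 12 alveolar macrophage markers was 345 to 346 against 428 to 435 CPM, with Marco, Krt79 and Cidec at 0. The 6 monocytic markers were lower, at 30594 to 32239 against 25706 to 28853 CPM, and the 7 classical monocyte markers overlapped, at 4251 to 4551 against 4528 to 4606 CPM. The T, regulatory T, NK, basophil or mast, fibroblast and epithelial or carcinoma lists were also higher in both PD-L1 KO libraries. None of these exceeded 30.3 CPM in any library. The endothelial list was lower in both, and the remaining lists overlapped. Cells were also split by the number of C1q markers they held, a split made after seeing the data. With at most 2 of these markers Mt1 was 154, 204, 405 and 354 CPM in 73, 44, 63 and 61 cells. With 3 or 4 it was 540, 284, 215 and 624 CPM in 4, 3, 4 and 10 cells, with the groups overlapping. The part of these markers in the result was not tested.

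In alveolar macrophage-like cells Mt1 was 1085 and 1319 CPM against 1267 and 1301, a log2 difference of 0.11 (SE 0.09, edgeR adjusted p = 0.787). The overlap rested on 1 cell, which held 420 of the 2527 UMIs of WT 2. Without the top cell of each library the level was 1021, 1111, 1227 and 1221 CPM and the difference 0.22 (SE 0.07, edgeR adjusted p = 0.353), with the groups apart but the difference not past the threshold. The share of cells with an Mt1 UMI was 91.5, 93.3, 98.5 and 96.7%, and 40.03, 46.1, 54.8 and 51.7% after thinning. Both PD-L1 KO libraries were above the WT pair in each form. By level, with the top cells kept, that order held in 17.6% of genes of the fit. For shares of cells it was not counted over all genes. Mt2 in that class was 128 and 134 CPM against 188 and 174, a difference of 0.49 (SE 0.10, adjusted p = 0.0915) that did not pass; in 17.6% of genes of the fit the groups were ordered the same way. The share of cells with an Mt2 UMI was 19.2, 22.8, 49.5 and 36.2%, and 6.08, 6.49, 11.8 and 9.53% after thinning. In C1q macrophage-like cells the Mt1 difference was 0.18 (SE 0.26) and that of Mt2 0.11 (SE 0.31), with the groups overlapping for both. In dendritic-like cells they were -0.01 (SE 0.28) and -0.78 (SE 0.52), with Mt2 at 46.0, 50.4, 8.78 and 42.3 CPM.

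Whether the Mt1 difference of classical monocyte-like cells differs from that of other myeloid classes was tested with a class-by-group term and the library as a block, a test added after seeing the data. Against alveolar macrophage-like cells it was larger by 0.90 on the log2 scale (SE 0.16, edgeR adjusted p = 0.00545), where 0.256% of genes were called. The difference was lost when cells meeting 2 gates were kept (0.65, adjusted p = 0.251). The term did not pass against nonclassical monocyte-like (1.01, SE 0.66, adjusted p = 0.928, 0.0188% called), C1q macrophage-like (0.85, SE 0.31, adjusted p = 1, 0% called), conventional dendritic-like (1.09, SE 0.31, adjusted p = 0.508, 0.0154% called) or neutrophil-like cells (0.62, SE 0.28, adjusted p = 0.989, 0.0314% called). The difference is not shown to be particular to 1 monocyte subset, since in nonclassical monocyte-like cells it was 0.04 with an SE of 0.76, and 1.59 (SE 0.33) with Leiden clusters and 1.31 (SE 0.25) with cells of 2 gates kept, neither past the threshold (edgeR adjusted p = 0.109 and 0.23).

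**Figure D4:**
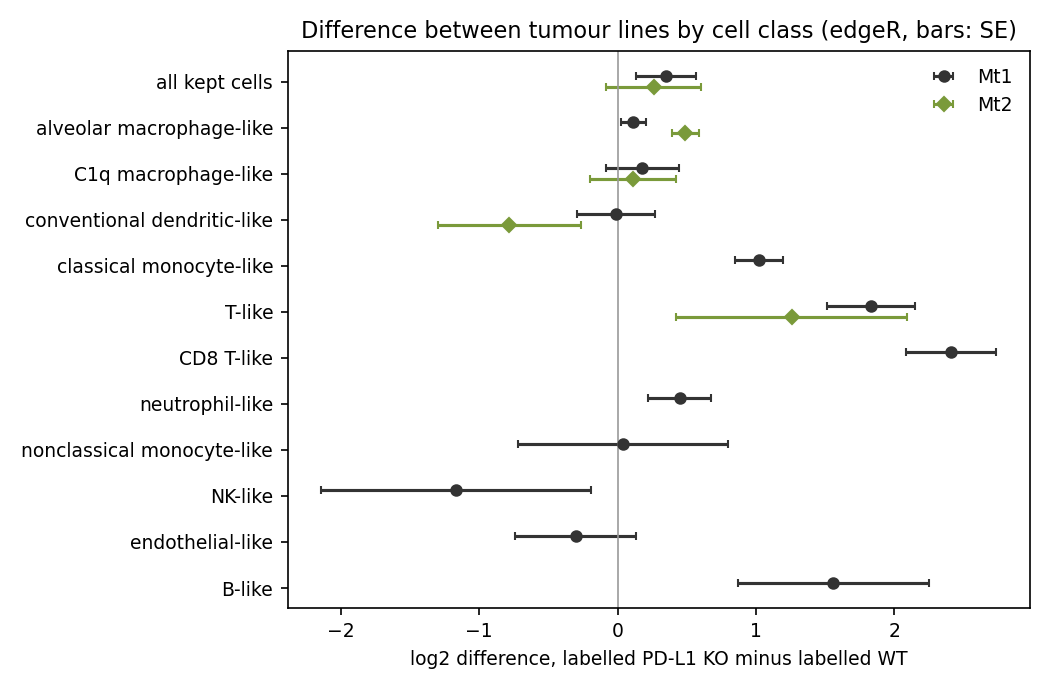
Log2 difference in Mt1 (circles) and Mt2 (diamonds), libraries labelled PD-L1 KO minus labelled WT, on the horizontal axis by cell class, with bars of 1 SE. Classical monocyte-like cells lie at 1.02 and CD8 T-like cells at 2.41, while the macrophage classes lie at 0.11 and 0.18 for Mt1.

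The 1 difference that passed was in CD8 T-like cells, and it rested on few cells. Mt1 was 42.9, 16.9, 132 and 195 CPM from 25, 10, 97 and 77 UMIs, a log2 difference of 2.41 (SE 0.33, edgeR adjusted p = 0.000339). Of the 97 UMIs in PD-L1 KO 1, 79 were in 1 cell, and of the 77 in PD-L1 KO 2, 38 were. Without the top cell of each library the difference was 1.74 and the adjusted p 0.606. The share of cells with an Mt1 UMI was 11.1, 3.45, 5.83 and 14.04%, with the groups overlapping, and in 20.5% of genes both PD-L1 KO libraries were above both WT libraries. The summed C1q macrophage markers were 57.4 to 163 CPM in libraries labelled WT and 169 to 556 in those labelled PD-L1 KO. Mertk was at 0 in all. The monocytic markers overlapped, at 45.6 to 214 against 198 to 500 CPM, as did the alveolar macrophage and classical monocyte lists. The nonclassical monocyte list was higher in both PD-L1 KO libraries, at 214.37 to 234.52 against 234.55 to 246.11 CPM. The plasmacytoid dendritic, NK, plasma and endothelial lists were lower in both, and the remaining lists overlapped. The part of these markers in the result was not tested.

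T-like cells as a whole gave 31.0, 11.9, 71.1 and 85.3 CPM (difference 1.83, SE 0.32, edgeR adjusted p = 0.145, the same order in 21.8% of genes). Neutrophil-like cells gave 84.2, 83.6, 90.7 and 123 CPM (0.45, SE 0.23, adjusted p = 0.829, 12.6% of genes) and B-like cells 1.42, 15.6, 20.2 and 29.3 CPM (1.56, SE 0.69, adjusted p = 0.999, 14.4% of genes). NK-like cells gave 2.17, 107, 6.20 and 36.7 CPM, where 37 of the 38 UMIs of WT 2 were in 1 cell. Endothelial-like cells gave 48.2, 25.8, 39.7 and 12.8 CPM (-0.30, SE 0.44).

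The genes of metal handling and stress were read from the same fits. In classical monocyte-like cells no measured member of the 10 lists passed. Of 3 tested genes of metal-responsive transcription 1 was higher and 2 lower: Slc30a1, the zinc exporter that MTF1 induces, was 24.3, 12.3, 16.9 and 30.3 CPM (0.23, SE 0.51, edgeR adjusted p = 0.961), Mtf1 itself was 17.3, 21.6, 22.5 and 14.1 CPM (-0.06, SE 0.50) and the smallest p was that of Ndrg1 (-0.11, SE 0.23). Zinc exporters were higher in 3 of 4 tested, led by Slc30a9 (0.65, SE 0.48), and importers in 2 of 2, led by Slc39a1 (0.45, SE 0.35). Copper handling was higher in 3 of 7, with the copper chaperones Cox17 (0.77, SE 0.29) and Atox1 (0.37, SE 0.14) at the smallest p. Iron handling was higher in 5 of 5, among them the ferritin heavy chain Fth1 (0.36, SE 0.14) and the metal transporter Slc11a1 (0.69, SE 0.26). The median difference of the 5 was 0.29, beside -0.01 over all 5527 genes tested.

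Stress lists went both ways in those cells. Heat shock and dissociation genes were lower in 8 of 10, with a median of -0.22. This was not particular to the class, with 11 of 12 lower over all kept cells and 9 of 11 in C1q macrophage-like cells (median -0.65). Most were lower in every other fitted class except endothelial-like cells, where 3 of 10 were. In classical monocyte-like cells Fosb, an immediate-early gene, was 414, 432, 230 and 246 CPM (-0.84, SE 0.16, edgeR adjusted p = 0.265), and Dnajb1 followed (-0.80, SE 0.32). In the same cells glucocorticoid-induced genes were higher in 3 of 7, hypoxia-induced in 4 of 6 and Nrf2 targets in 4 of 7, with medians of -0.01, 0.14 and 0.14. The smallest p values were those of Cebpd (-0.63, SE 0.24), of Ldha, which makes lactate (0.63, SE 0.24), and of thioredoxin Txn1 (0.41, SE 0.18).

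In CD8 T-like cells no list member other than Mt1 passed. The nearest were Ldha at 430, 342, 586 and 754 CPM (0.77, SE 0.20, edgeR adjusted p = 0.147) and Txn1 at 372, 206, 447 and 619 CPM (0.87, SE 0.23, adjusted p = 0.147). Fosb was lower there as well (-0.91, SE 0.31, adjusted p = 0.313).

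The genes most like Mt1 over the 48 sums of 12 classes and 4 libraries, by Pearson's r of log2(CPM + 1) among 8361 genes with a mean of at least 10 CPM, were Tbxas1 (r = 0.84), Sh3pxd2b (0.80), Gatm (0.79), Rab7b (0.79) and Dab2 (0.78), followed by Mt2 (0.78). Those most like Mt2 were Nek6 (0.80), Mt1 (0.78), Prune2 (0.74), Calm3 (0.74) and Ptms (0.73). With log2(CPM + 5) in place of log2(CPM + 1), Calm3 and Ptms were no longer among the 5 most like Mt2. The sums share libraries and T-like cells share cells with both of their subsets, so these values are a description. Tbxas1, thromboxane synthase, averaged 180 CPM in alveolar macrophage-like cells, 129 in C1q macrophage-like cells, 61.8 in classical monocyte-like cells and 1.44 in B-like cells, the order in which Mt1 fell. Sh3pxd2b fell in that order too (99.1, 74.3, 12.7 and 0.356 CPM). Gatm, Rab7b and Dab2 did not. They averaged 495, 104 and 526 CPM in C1q macrophage-like cells, above 131, 53.1 and 442 CPM in alveolar macrophage-like cells. All these genes were picked for likeness to Mt1 over the same sums, so a shared order is no separate result. Only 4 of the classes are given here.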

How the data were processed

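UMI counts per gene and barcode were deposited by the authors as raw matrices, not normalized, per the file headers; the submitters' processing notes name mm10, STAR and Cell Ranger 3.1.0, with the annotation release not given in the sources used here. Mt1, Mt2, the marker genes, gates and gene lists were chosen with earlier results of these data known.

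Barcodes with at least 200 genes and at most 10% mitochondrial UMIs were kept, and those with the highest Scrublet doublet scores, 0.8% per 1000 barcodes, were left out. A class needed 3 to 5 of its markers, monocyte subsets and C1q macrophages also 2 monocytic markers. Gates were set after the data were seen. Names are by marker and carry "-like". CD8 T-like and CD4 T-like cells are parts of T-like cells. Classes with at least 20 cells in every library were fitted (edgeR 4.0.16, R 4.3.3, TMM, filterByExpr), 13 fits in all. Simulated counts with known changes were used to test the scripts. SEs are the log2 difference over the root of F.

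Named genes were Mt1 and Mt2, Mt3, Mt4, Mtf1 and Slc30a1, the 5 most like each member, and in each list those past the test or otherwise the 2 with the smallest p, of which the text gives the leading ones. Gene models are GENCODE M21, upstream windows RefSeq (GRCm38.p6); the Mt1 window overlaps the start of the GENCODE model. Alternatives were DESeq2 1.42.0, no low-count filter, each library left out, the replicate number as a block, no barcode filter, Leiden clusters, a stricter gate, cells of 2 gates kept in their leading class and the top cell left out. Same-numbered libraries did not deviate together (r from -0.30 to 0.01). With 2 libraries per group the deviations of a group mirror each other, so a negative r means that differently numbered libraries deviated together. These values give no sign that the numbers pair the libraries but cannot exclude it.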

Additional observations from a re-analysis of the deposited data

Results flagged for a closer look

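The Mt1 difference between tumour lines was larger in classical monocyte-like than in alveolar macrophage-like cells by 0.9049 on the log2 scale (SE 0.16, edgeR adjusted p = 0.00545), a difference between 2 cell classes under the same contrast. Classical monocyte-like cells stood at 175 and 210 CPM in the libraries labelled WT and 392 and 391 CPM in those labelled PD-L1 KO, and alveolar macrophage-like cells at 1085 and 1319 against 1267 and 1301 CPM. With each library left out in turn the value was 0.89 to 0.94 and the adjusted p 0.00613 to 0.0161. With cells of 2 gates kept the value was 0.65 and did not pass (adjusted p = 0.251). The test was added after the data were seen.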

How the results depend on the processing

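Libraries are few, low sums carry 0 to a few UMIs, and there are 2 libraries per group. There were 284 alternative values of the Mt1 and Mt2 differences and of the Mt1 class-by-group terms. Of these 228 kept direction and side of the threshold, where a value without an adjusted p was counted as kept. Of 260 levels 232 stayed within 1 SD.

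Mt1 in classical monocyte-like cells was 1.0401 with no filter on low counts, 1.5636 with Leiden clusters, 1.6351 with the stricter gate and 1.0202 with the replicate block, all past the threshold, and 0.8854 to 1.1493 with a library left out (adjusted p 0.0052 to 0.0796). A fit with 1 library in a group assumes that it varies like the other group. The numbers are not shown to pair the libraries. The replicate block moved the genes called in that class from 2 to 16. The crossed replicate block, added after seeing the data, moved them to 1 and left Mt1 at 1.0201 with an adjusted p of 0.203, not past the threshold. Mt1 in CD8 T-like cells lost its call with the stricter gate (1.9025), with cells of 2 gates kept (1.1055) and without top cells (1.7408). Mt2 in alveolar macrophage-like cells passed with no filter (0.4921) and the crossed replicate block (0.4852), and was 0.4319 to 0.5537 with a library left out, past the threshold without PD-L1 KO 2 (adjusted p = 0.0019). Mt1 in T-like cells passed with no filter (1.8173) and the crossed replicate block (1.8892) and was 1.338 to 2.6091 with a library left out; Mt2 there was 0.2969 to 6.6625, past the threshold without WT 1, when Mt2 was at 0 in the remaining WT library.

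Over all kept cells leaving out a library gave 0.0865 to 0.6782 for Mt1 and -0.1502 to 0.8453 for Mt2, both past the threshold without WT 1 (adjusted p 0.0051 and 0.0054), where 2258 genes were called. Reversed directions were all of differences that did not pass. For C1q macrophage-like cells Mt1 was -0.2563 with Leiden clusters, -0.0571 with the stricter gate, -0.2267 with cells of 2 gates kept and -0.0253 to 0.383 with a library left out; Mt2 was -0.8719, -0.8291 and -1.0125 in turn, -0.2491 without top cells and -0.1615 to 0.3509. For dendritic-like cells Mt1 was 0.0047 with DESeq2, 0.1447 with Leiden clusters, 0.6319 with the stricter gate, 0.2854 with cells of 2 gates kept and -0.5161 to 0.3655, and Mt2 was 0.0962 and 0.1038 under those last 2 gate settings. Nonclassical Mt1 did not pass under any setting run: it was 1.5924 with Leiden clusters (adjusted p = 0.109), 1.3104 with cells of 2 gates kept (adjusted p = 0.23), 0.6536 with the stricter gate, -0.2544 with DESeq2, -0.2887 with the replicate block, -0.3616 with no barcode filter and -1.0814 to 3.079 with a library left out. Mt1 was -0.5071 in B-like cells with the stricter gate. With a library left out it was -0.0303 to 0.2668 in alveolar macrophage-like, -2.9311 to 3.1541 in NK-like and -1.4333 to 0.1963 in endothelial-like cells.

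Of the class-by-group terms, that against alveolar macrophage-like cells was lost with cells of 2 gates kept (0.6495). Against nonclassical monocyte-like cells it was -0.0156 with Leiden clusters, -0.4942 with cells of 2 gates kept and -2.2458 to 2.2245 with a library left out. Against C1q macrophage-like cells it passed with Leiden clusters (1.8543), and against dendritic-like cells it was 0.6547 to 1.5473, passing without PD-L1 KO 1.

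Levels moved by over 1 SD in 28 cases. With cells of 2 gates kept Mt1 was 177.26 in nonclassical, 285.5 in neutrophil-like, 189.99 in T-like, 206.7 in CD8 T-like, 126.68 in CD4 T-like, 185.95 in B-like and 59.274 CPM in endothelial-like cells, and Mt2 was 84.334 in C1q macrophage-like, 9.3616 in classical, 17.407 in nonclassical, 17.408 in neutrophil-like, 14.203 in T-like and 13.339 CPM in B-like cells. With Leiden clusters Mt1 was 219.46 in nonclassical, 593.85 in dendritic-like, 74.111 in neutrophil-like and 33.978 CPM in B-like cells, and Mt2 6.3679, 58.64 in dendritic-like and 2.9391 in B-like. With the stricter gate Mt1 was 92.875 in T-like, 62.084 in CD4 T-like and 46.468 CPM in B-like cells, and Mt2 3.2226 in nonclassical, 8.6519 in CD4 T-like and 3.817 in B-like. Without top cells Mt1 in neutrophil-like cells was 71.932, and with no barcode filter Mt2 in nonclassical cells was 0.6348 CPM. The cause was not tested.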
